A study of Arabidopsis thaliana with 18 samples.

Results

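The gibberellin receptor gene GID1A, the 5 DELLA repressor genes GAI, RGA, RGL1, RGL2 and RGL3, and the 4 GASA peptide genes GASA1, GASA4, GASA6 and GASA14 were followed in the first pair of leaves of PID overexpression lines and of WT. Members were taken by locus identifier, and all 10 of the 10 loci were present among the 28642 loci of the tables. All 10 also passed the filter on low counts, among 16499 loci that passed.

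Messenger RNA of whole first leaves was sequenced in P10, P21 and WT at 16 and 9 days after stratification (DAS). The stage of leaf growth that each line had reached was not measured here. P10 and P21 are independent Col-0 lines in which the cDNA of PID, a protein kinase that steers polar auxin transport, stands behind the 35S promoter, which is active in most plant cells. WT was Col-0. All seedlings grew without further treatment on half-strength MS medium with 1% sugar at 21°C in a 16/8 h light cycle, and each line stands for 1 transformation event. P10 and WT had 3 libraries at each day and P21 had 2 (replicates 2 and 3), since the first P21 replicate of either day is not analysed here. Nothing stated which plants or plates the replicates came from, so p-values measure the spread between libraries, which may in part be technical.

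Unique gene reads per library ranged between 1193042 and 4695692, with a median of 2631344. PID itself had 749 to 882 CPM (counts per 1e6 unique gene reads, TMM-scaled) in P10, 368 and 631 in P21 and 3.19 to 4.22 in WT at 16 DAS. At 9 DAS it had 446 to 522 CPM in P10, 939.8 and 961 in P21 and 4.73 to 5.92 in WT. The labels were thus met by the transgene in every library, and P21 was above P10 at 9 DAS. Summed over 4 leaf markers (RBCS1A, LHCB1.3, RCA and GAPA), the level was 45728 to 54965 CPM in P10, 72095 to 75353 in P21 and 61714 to 70744 in WT at 16 DAS, so that P10 lay below the other lines. Flower markers (AG, AP3 and PI) summed to at most 1.72 CPM, the root hair markers EXPA7 and COBL9 reached at most 1.49 and 2.24 CPM, and SCR, which leaves also express, was present. Meristem markers (STM, KNAT1, WUS and CLV3) summed to at most 0.396 CPM at 16 DAS and to 1.25 to 8.98 CPM at 9 DAS. The second library index in the raw-file names was one for P10 and WT at 9 DAS and another for the rest. Index and line cannot be told apart in comparisons of P21 with P10 or WT at 9 DAS, nor index and day in 16 against 9 DAS within P10 or WT. The lane tag in the raw-file names differed for P21 replicate 2 of 9 DAS alone.

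Gibberellins promote growth by removing a brake. The soluble receptor GID1 binds the hormone and then a DELLA protein, one of a small family of nuclear growth repressors of the GRAS type, and the complex hands the DELLA to the SCF ubiquitin ligase with the F-box protein SLY1 for degradation. DELLA proteins hold back growth largely by binding other transcription factors, among them the PIF proteins, and they raise transcripts of the receptor and of hormone synthesis genes, which gives feedback. GASA genes encode small secreted cysteine-rich peptides, several of which were found as gibberellin-regulated genes, with GASA4 and GASA6 induced and linked to cell division, elongation or germination. Since DELLA activity is controlled mostly through protein turnover, transcript levels are one layer only of this pathway.

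The upstream sequences of 4 members show the genes on which the values below turn, each the 250 bases before the gene start in the RefSeq annotation of TAIR10.1. They were read 5′ to 3′ on the gene's strand, at chr3:1430113-1430362 (plus strand), chr1:5148732-5148981 (plus), chr1:28442436-28442685 (minus) and chr5:4944566-4944815 (plus). Capitals mark matches to any of 6 motifs searched on both strands.
GID1A: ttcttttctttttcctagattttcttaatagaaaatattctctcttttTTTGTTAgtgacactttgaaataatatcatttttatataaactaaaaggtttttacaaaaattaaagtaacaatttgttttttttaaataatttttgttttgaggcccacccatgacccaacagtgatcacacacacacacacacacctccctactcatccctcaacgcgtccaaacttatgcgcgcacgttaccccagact
GAI: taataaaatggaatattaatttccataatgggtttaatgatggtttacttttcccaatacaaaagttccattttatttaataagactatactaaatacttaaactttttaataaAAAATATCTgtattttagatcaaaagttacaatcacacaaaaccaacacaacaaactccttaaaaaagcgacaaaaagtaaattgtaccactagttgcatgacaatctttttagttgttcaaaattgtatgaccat
GASA1: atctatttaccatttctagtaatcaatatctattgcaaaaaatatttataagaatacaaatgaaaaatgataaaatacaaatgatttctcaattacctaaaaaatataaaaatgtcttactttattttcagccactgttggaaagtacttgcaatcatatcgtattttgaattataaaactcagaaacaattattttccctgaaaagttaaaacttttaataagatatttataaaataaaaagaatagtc
GASA4: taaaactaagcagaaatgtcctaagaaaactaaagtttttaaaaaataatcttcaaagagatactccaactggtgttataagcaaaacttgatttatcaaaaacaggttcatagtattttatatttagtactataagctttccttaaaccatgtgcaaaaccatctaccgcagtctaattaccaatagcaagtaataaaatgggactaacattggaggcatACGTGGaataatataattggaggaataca
The capitals in GID1A are the reverse complement of the gibberellin response element TAACAAA, which 16.1% of 27443 windows of protein-coding genes held and which RGL3 held as well. In GAI they are the evening element AAAATATCT (2.36% of windows), and in GASA4 the ABRE core ACGTGG (8.23%). The G-box CACGTG (6.49%), the CCA1-binding site AAAAATCT (6.69%) and the auxin response element TGTCTC (10.9%) were in none of the 10 member windows. No motif overlapped another in a member window, and a match is a run of letters, not a shown binding site.

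At 16 DAS, P10 leaves differed from WT in most of these genes. GID1A, GAI, RGL1, RGL2, RGL3 and GASA14 rose, with log2 fold changes between 1.15 and 2.35. GASA1 fell, with a log2 fold change of -3.35, and RGA, GASA4 and GASA6 did not pass the test. The 7 of 10 calls (edgeR quasi-likelihood test, Benjamini-Hochberg adjusted p under 0.05 and log2 fold change beyond 0.75) stand beside 15.8% of all tested genes in this comparison, 8.1% higher and 7.69% lower. The median log2 fold change over the 10 genes was 1.20, against 0.02 over all tested genes. In whole leaves, fewer cells of a type and less RNA per cell cannot be told apart. The leaf marker sum moved in the same comparison, as given above, and its part in these values was not tested.

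**Figure D1:**
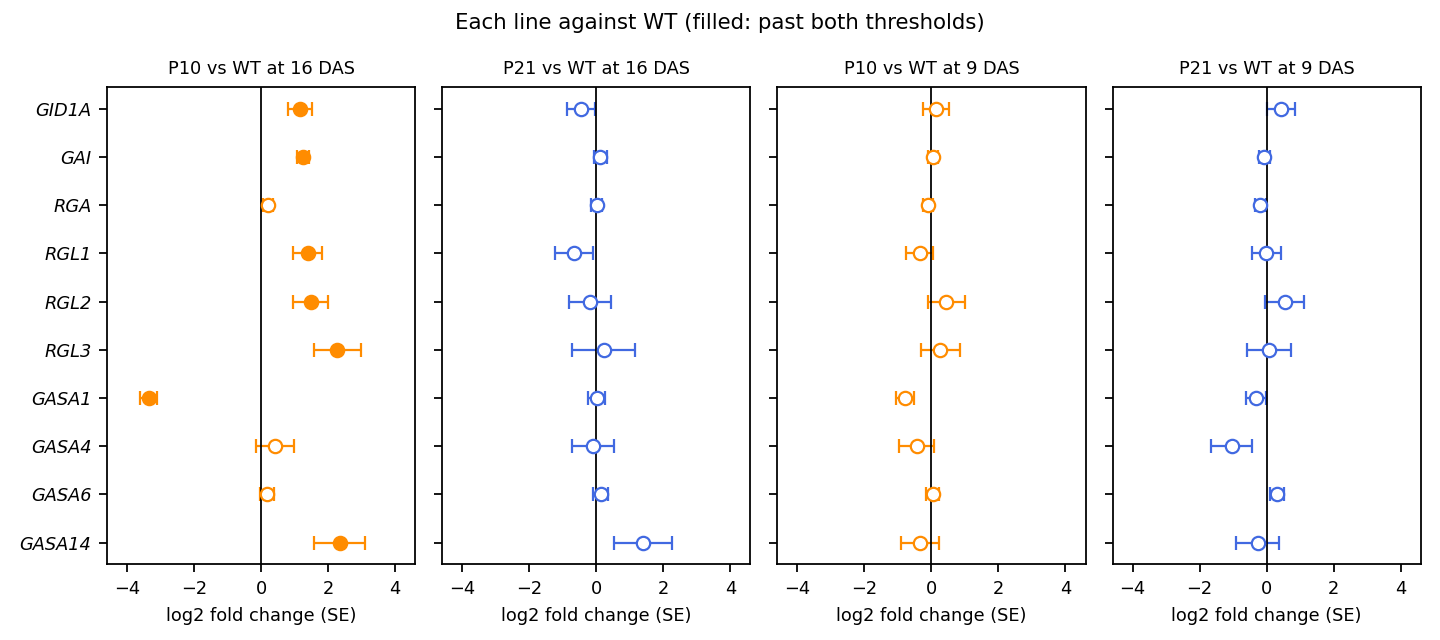
Fitted log2 fold changes (points, with standard errors as bars) of the 10 genes in P10 and P21 against WT at 16 and at 9 DAS. Filled points passed both thresholds, and all 7 filled points lie in the comparison of P10 with WT at 16 DAS.

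The count of calls leaned on single libraries. It was 2 without P10 replicate 1, 4 without P10 replicate 2 or 3, 3 without WT replicate 1 or 3 and 4 without WT replicate 2. GAI and GASA1 were called in each of these fits. The call of GID1A was lost without P10 replicate 1 or 2 or WT replicate 1 or 3, that of RGL1 without P10 replicate 1 or 3 or WT replicate 1 or 2, and that of RGL3 without P10 replicate 1 or WT replicate 2 or 3.

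GID1A (AT3G05120, chromosome 3, 1430471 to 1432778 on TAIR10, 2 exons) encodes one of the 3 Arabidopsis gibberellin receptors. At 16 DAS it had 55.0, 74.0 and 29.3 CPM in P10, 14.5 and 19.7 CPM in P21 and 17.2, 28.5 and 25.3 CPM in WT. Every P10 library was above every WT library, but P10 replicate 3 was above the highest WT library by less than the WT libraries differed among themselves. P10 over WT gave a log2 fold change of 1.15 ± 0.36 (SE, adjusted p = 0.031, edgeR), and P10 over P21 gave 1.61 ± 0.42 (adjusted p = 0.014). P21 against WT gave -0.45 ± 0.42 (adjusted p = 0.82).

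At 9 DAS the receptor transcript had 23.3, 25.6 and 16.9 CPM in P10, 25.5 and 29.2 CPM in P21 and 17.5, 33.1 and 11.8 CPM in WT. The 3 lines overlapped, and WT held both the highest and the lowest library. Between the days, GID1A rose in P10 by a log2 fold change of 1.23 ± 0.35 (adjusted p = 0.012), while WT gave 0.22 ± 0.38 (adjusted p = 0.67). The difference between these 2 day changes was 1.02 ± 0.52 and did not pass the test (adjusted p = 0.30).

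GAI (AT1G14920, chromosome 1, 5149226 to 5151354, a single exon) is the DELLA gene whose dominant allele gave dwarf, gibberellin-insensitive plants. It had 51.7, 42.2 and 40.0 CPM in P10, 18.9 and 21.2 CPM in P21 and 18.8, 20.4 and 14.9 CPM in WT at 16 DAS. The 3 P10 libraries stood together, apart from both other lines, whose values overlapped. The log2 fold change of P10 over WT was 1.25 ± 0.18 (adjusted p = 5.7e-05), and that over P21 was 1.13 ± 0.20 (adjusted p = 0.00056).

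At 9 DAS the lines had nearly the same GAI level, with 61.8, 63.7 and 82.7 CPM in P10, 66.8 and 60.3 CPM in P21 and 65.7, 70.1 and 64.0 CPM in WT. GAI fell between the days in WT (log2 fold change -1.85 ± 0.17, adjusted p = 4.3e-08) and in P21 (-1.66 ± 0.21, adjusted p = 8.4e-06), with no overlap between the days. P10 libraries did not overlap between the days either, but the change of -0.64 ± 0.16 (adjusted p = 0.0036) was under the fold threshold. The P10 effect differed between the days by 1.21 ± 0.24 (adjusted p = 0.0058). GAI in P10 was thus lower at 16 than at 9 DAS, by less than in WT.

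RGA (AT2G01570, chromosome 2, 255249 to 257550, a single exon) is the closest relative of GAI and had the highest group mean of the DELLA genes in all 6 groups, although GAI was above it in P10 replicate 3 at 9 DAS (82.7 against 80.8 CPM). It had 136, 125 and 148 CPM in P10, 116 and 123 CPM in P21 and 101, 141 and 110 CPM in WT at 16 DAS. P10 and WT overlapped through WT replicate 2, and their log2 difference was 0.21 ± 0.15 (adjusted p = 0.34). At 9 DAS RGA had 101, 92.9 and 80.8 CPM in P10, 92.0 and 82.5 CPM in P21 and 101, 92.8 and 106 CPM in WT. Between the days P10 gave a log2 fold change of 0.57 ± 0.15 (adjusted p = 0.0046), which was under the fold threshold, and WT gave 0.24 ± 0.15 (adjusted p = 0.19).

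The 3 RGL genes were low, with 0 to 53 reads a library, so their changes had wide errors. RGL1 (AT1G66350, chromosome 1, 24748195 to 24750043) had 12.3, 4.22 and 11.9 CPM in P10, 1.32 and 2.77 CPM in P21 and 3.51, 3.23 and 3.73 CPM in WT at 16 DAS. P10 replicate 2 stood just above WT, and the other P10 libraries lay well above it. The log2 fold change was 1.40 ± 0.43 over WT (adjusted p = 0.024) and 2.07 ± 0.53 over P21 (adjusted p = 0.0082).

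RGL2 (AT3G03450, chromosome 3, 819337 to 821406), the main DELLA brake on seed germination, had 14.8, 15.7 and 21.0 CPM in P10, 3.07 and 7.38 CPM in P21 and 3.51, 10.7 and 2.24 CPM in WT at 16 DAS. No P10 library overlapped the other lines. The log2 fold change over WT was 1.48 ± 0.51 (adjusted p = 0.049), next to the threshold, and was no longer called with DESeq2 size factors, without the low-count filter, or without any one of several libraries, some from other groups. Over P21 it was 1.67 ± 0.60 (adjusted p = 0.062).

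RGL3 (AT5G17490, chromosome 5, 5764063 to 5766077), a DELLA gene linked to jasmonate-dependent defence, had 6.57, 4.22 and 3.96 CPM in P10, 1.32 and 0.922 CPM in P21 and 1.91, 0.496 and 0 CPM in WT at 16 DAS. These stood for 8, 11 and 10 reads in P10, 3 and 3 reads in P21 and 6, 2 and 0 reads in WT. P10 did not overlap the other lines. The log2 fold change over WT was 2.28 ± 0.70 (adjusted p = 0.023) and that over P21 was 2.06 ± 0.77 (adjusted p = 0.067).

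At 9 DAS the RGL genes overlapped between the lines. RGL1 had 3.66 to 7.52 CPM in P10, 4.82 and 8.25 CPM in P21 and 6.14 to 7.15 CPM in WT. RGL2 had 3.66 to 12.5 CPM in P10, 6.20 and 12.1 CPM in P21 and 3.78 to 9.66 CPM in WT. RGL3 had 1.22 to 5.32 CPM in P10, 4.13 and 2.22 CPM in P21 and 1.97 to 3.93 CPM in WT. None of the 3 was called between a line and WT at this day. Between the days, RGL1 fell in P21 (log2 fold change -1.60 ± 0.56, adjusted p = 0.038), a call that was lost without P21 replicate 2 or 3 of 16 DAS or replicate 3 of 9 DAS.

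**Figure D2:**
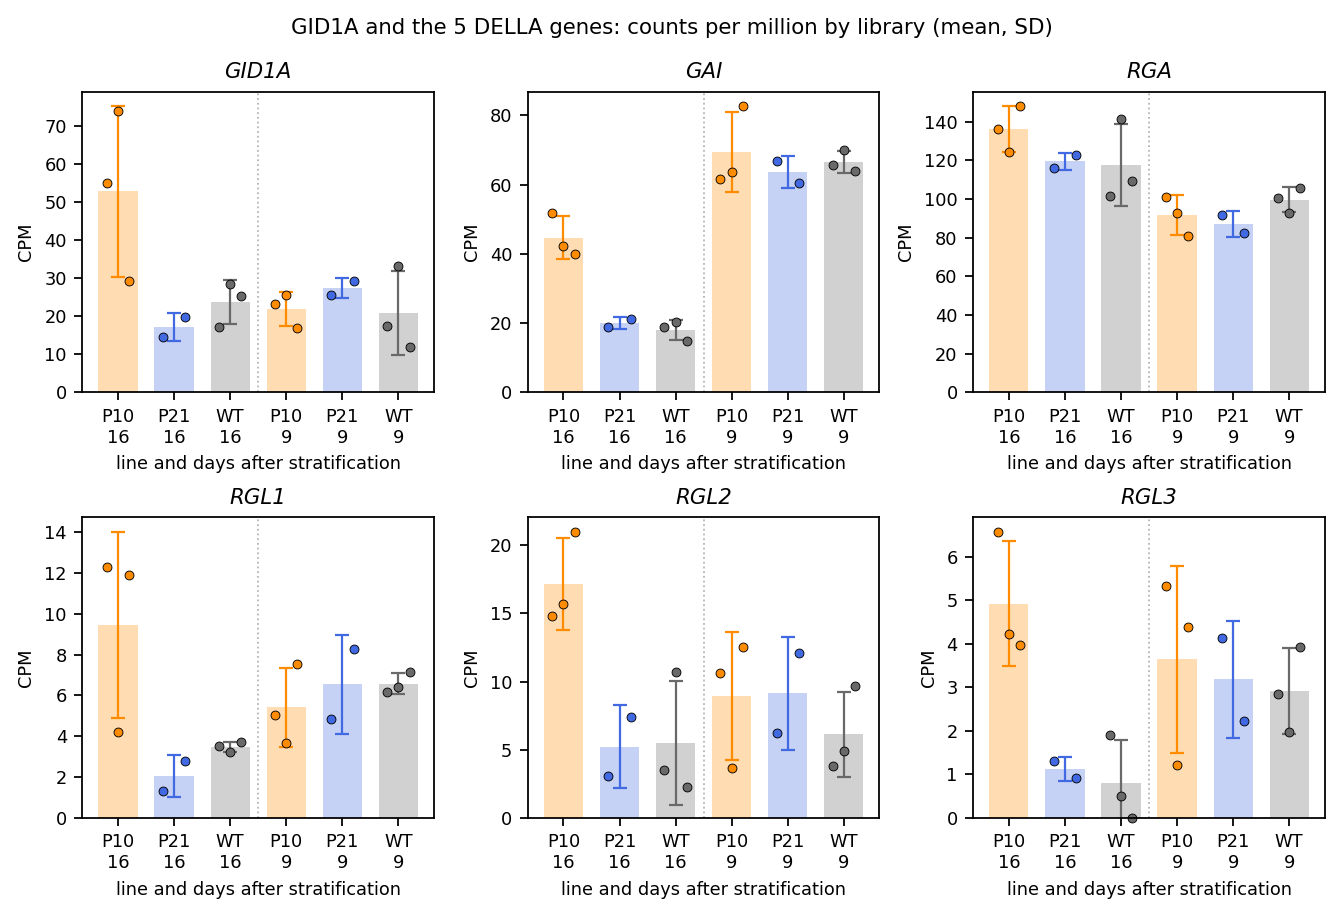
CPM of GID1A and the 5 DELLA genes in every library (points), with group means (bars) and SD (error bars, cut at 0), by line at 16 DAS (left of the dotted line) and 9 DAS (right). At 16 DAS all 3 P10 points of GAI (40.0 to 51.7 CPM) lie above P21 and WT, while at 9 DAS the lines overlap.

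Per kilobase of gene region, which for these intronless genes is close to transcript length, the order of DELLA levels could be read across genes. At 16 DAS RGA had 59.2 ± 5.13 CPM per kb in P10, 51.9 ± 1.96 in P21 and 51.0 ± 9.20 in WT (SD, n = 3, 2 and 3). GAI followed with 21.0 ± 2.93, 9.41 ± 0.778 and 8.47 ± 1.32 CPM per kb in P10, P21 and WT. The RGL genes came last, at 2.44 to 8.29 CPM per kb on average in P10, 0.556 to 2.52 in P21 and 0.399 to 2.64 in WT. Among the WT libraries RGL1 and RGL2 overlapped on this scale, and RGL3 lay below both.

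Summed over the 5 DELLA genes, the level at 16 DAS was 96.0 ± 8.82 CPM per kb in P10, 65.5 ± 4.62 in P21 and 64.4 ± 11.9 in WT. The lowest P10 library, at 85.9, was above the highest WT library, at 78.2. RGA made up 61.7% of this sum in P10, 79.3% in P21 and 79.3% in WT, and GAI made up 21.9%, 14.4% and 13.3%. At 9 DAS the sums were 81.5 ± 6.07 in P10, 77.3 ± 2.42 in P21 and 82.5 ± 3.40 in WT, with RGA at 49.2%, 49.0% and 52.4%. The RGA and GAI shares in P10 at 16 DAS lay between those of WT at the same day and those of the 9 DAS leaves. The 3 RGL genes together made up 16.4% of the sum in P10, 6.30% in P21 and 7.47% in WT at 16 DAS, and 10.9%, 12.4% and 9.58% at 9 DAS, so that P10 at 16 DAS had the highest mean RGL share of the 6 groups. These shares are a description without a test.

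GASA1 (AT1G75750, chromosome 1, 28441526 to 28442429, 3 exons), an early described member of this gibberellin-regulated family, gave the widest range of the 10. At 16 DAS it had 39.4, 29.5 and 34.1 CPM in P10, 283 and 411 CPM in P21 and 406, 281 and 351 CPM in WT. The highest P10 library was far below the lowest of P21 or WT, and P21 and WT overlapped. P10 over WT gave a log2 fold change of -3.35 ± 0.25 (adjusted p = 1.7e-07), and P10 over P21 gave -3.36 ± 0.27 (adjusted p = 4.4e-07). Mean CPM in WT was 10.1 times that in P10.

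At 9 DAS GASA1 was low in all lines, with 16.5, 11.6 and 21.9 CPM in P10, 30.7 and 14.3 CPM in P21 and 27.4, 26.7 and 29.7 CPM in WT. All P10 libraries lay below all WT libraries, but the log2 fold change of -0.79 ± 0.27 did not pass the test over all genes (adjusted p = 0.22, unadjusted p = 0.0095). Between the days GASA1 rose in WT by a log2 fold change of 3.62 ± 0.26 (adjusted p = 3.9e-09), in P21 by 3.96 ± 0.32 (adjusted p = 1.2e-07) and in P10 by 1.07 ± 0.27 (adjusted p = 0.0043). The P10 effect differed between the days by -2.55 ± 0.37 (adjusted p = 0.00082). The P21 effect differed by 0.33 ± 0.38 (adjusted p = 0.73).

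GASA4 (AT5G15230, chromosome 5, 4944900 to 4946216), whose peptide promotes gibberellin responses, had 67.3, 76.6 and 58.2 CPM in P10, 45.2 and 49.5 CPM in P21 and 45.9, 63.0 and 41.0 CPM in WT at 16 DAS. P10 and WT overlapped through WT replicate 2, and the log2 difference was 0.41 ± 0.57 (adjusted p = 0.66). At 9 DAS it had 66.1, 248 and 157 CPM in P10, 140 and 67.3 CPM in P21 and 208, 348 and 86.6 CPM in WT. Replicates of 1 group differed here by more than the group means did, and the lines overlapped.

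GASA6 (AT1G74670, chromosome 1, 28053286 to 28054149), which integrates gibberellin and other hormone signals in germinating seeds, was the steadiest of the peptide genes between lines. It had 77.2, 97.3 and 61.0 CPM in P10, 82.5 and 70.4 CPM in P21 and 93.4, 60.6 and 52.2 CPM in WT at 16 DAS. At 9 DAS it had 141, 142 and 159 CPM in P10, 193 and 161 CPM in P21 and 143, 169 and 118 CPM in WT. All 16 DAS libraries were below all 9 DAS libraries. GASA6 fell between the days in P10 (log2 fold change -0.90 ± 0.20, adjusted p = 0.0012), in P21 (-1.21 ± 0.25, adjusted p = 0.00098) and in WT (-1.05 ± 0.20, adjusted p = 0.00027).

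GASA14 (AT5G14920, chromosome 5, 4826479 to 4827980), whose product joins a GASA domain to a proline-rich stretch, had 23.8, 33.3 and 13.5 CPM in P10, 6.58 and 16.6 CPM in P21 and 2.55, 4.72 and 8.20 CPM in WT at 16 DAS. P10 did not overlap WT, but P21 replicate 3 lay above the lowest P10 library. The log2 fold change of P10 over WT was 2.35 ± 0.77 (adjusted p = 0.048), next to the threshold, and the call was lost in most fits that left out 1 library, of whichever group. P21 over WT gave 1.38 ± 0.87 (adjusted p = 0.70). At 9 DAS GASA14 had 12.7, 49.1 and 32.6 CPM in P10, 43.1 and 22.5 CPM in P21 and 40.2, 61.2 and 19.0 CPM in WT, with full overlap.

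**Figure D3:**
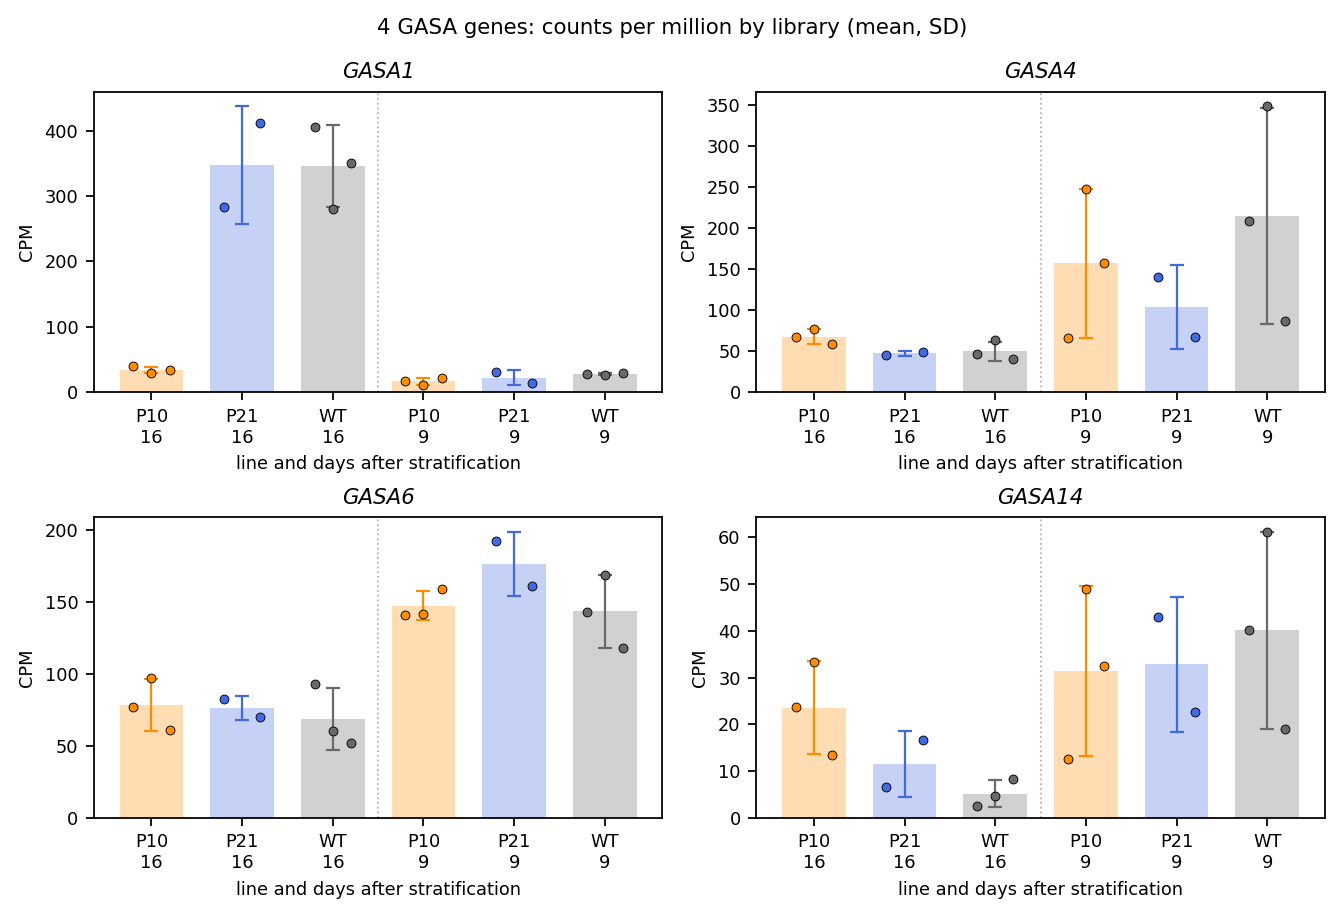
CPM of GASA1, GASA4, GASA6 and GASA14 in every library (points), with group means (bars) and SD (error bars), by line at 16 DAS (left of the dotted line) and 9 DAS (right). GASA1 is at 29.5 to 39.4 CPM in P10 at 16 DAS, against 281 to 406 CPM in WT, and GASA4 and GASA14 spread widely within each line at 9 DAS.

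The order of the peptide genes changed with it. Per kilobase of gene region, introns included, WT leaves at 16 DAS had 383 ± 69.1 CPM per kb of GASA1, 79.5 ± 25.2 of GASA6, 37.9 ± 8.79 of GASA4 and 3.43 ± 1.90 of GASA14 (SD, n = 3). P10 leaves at 16 DAS had 38.0 ± 5.48 of GASA1, 90.9 ± 21.1 of GASA6, 51.2 ± 6.99 of GASA4 and 15.7 ± 6.62 of GASA14. GASA1 thus led the 4 genes in WT and stood below GASA6 and GASA4 in P10. In WT at 9 DAS GASA6 (166 ± 29.5) and GASA4 (163 ± 99.5) did not separate and were above GASA1 (30.9 ± 1.75) and GASA14 (26.7 ± 14.1), which did not separate either.

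No member was called in P21 against WT at 16 DAS, where 0.127% of all tested genes were called, nor in P10 against WT at 9 DAS (0.339%) or in P21 against WT at 9 DAS (5.39%). By edgeR, 0, 1 (GASA1) and 0 of 10 members had a raw p under 0.05 in these comparisons, and DESeq2 likewise called 0 in each. P10 against P21 at 9 DAS gave 0 calls as well (0.0364% of all genes), with no member at a raw p under 0.05 and none called with DESeq2. P10 against P21 at 16 DAS gave 4 calls (14.9% of all genes, 7.59% higher and 7.32% lower), in which GID1A, GAI and RGL1 rose and GASA1 fell. Only GAI and GASA1 were left without P21 replicate 2, the call of GID1A was lost without P21 replicate 3 and that of RGL1 without P10 replicate 3. P10 is the shared side of the comparisons with WT and P21, so their results are not independent.

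Between the days, 3 of 10 members were called in P10 (31% of all genes), 4 in P21 (23.7%) and 5 in WT (36%), so many genes changed beside them. GASA1 rose and GASA6 fell in all 3 lines. GID1A rose in P10, RGL1 fell in P21, GAI fell in P21 and WT, and GASA4 and GASA14 fell in WT. The count in P10 was 5 without P10 replicate 1 of 9 DAS, and the call of GID1A was lost without P10 replicate 2 and that of GASA6 without P10 replicate 3 of 16 DAS. The meristem marker sum was lower at 16 than at 9 DAS, as given above, and its part in these changes was not tested.

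**Figure D4:**
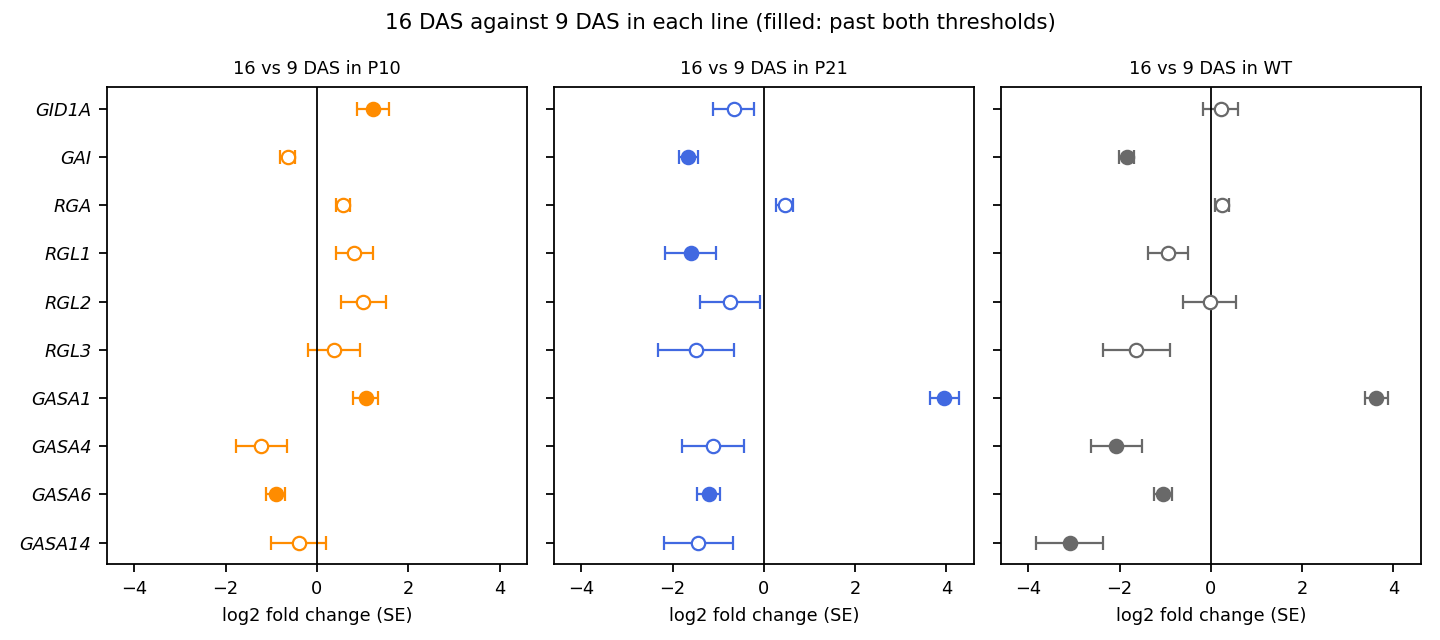
Fitted log2 fold changes of 16 over 9 DAS (points, with standard errors as bars) of the 10 genes in P10, P21 and WT. Filled points passed both thresholds, and GASA1 is at 1.07 in P10, 3.96 in P21 and 3.62 in WT.

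A test of whether a line's effect changed between the days called 2 of 10 members for P10 (GAI and GASA1, 4.7% of all genes) and 0 for P21 (3.18% of all genes, with no member at a raw p under 0.05 and none called with DESeq2). For P10, the estimates for RGL1 (1.76 ± 0.60, adjusted p = 0.10), RGL3 (2.01 ± 0.92, adjusted p = 0.23) and GASA14 (2.70 ± 0.96, adjusted p = 0.15) were as large as that for GAI but did not pass.

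The spread of GASA4 and GASA14 at 9 DAS ran with the morning clock gene CCA1, which encodes a transcription factor of the circadian oscillator. CCA1 had 259, 39.0 and 115 CPM in P10, 132 and 241 CPM in P21 and 78.9, 26.2 and 225 CPM in WT at 9 DAS. Replicate 2 of P10 and of WT stood apart in the evening-phased clock gene PRR5 too, with 40.5 and 48.9 CPM, against at most 4.25 CPM in the other 6 libraries. Ordered by CCA1, the 8 libraries had exactly the reverse order in GASA4, across all 3 lines. GASA14 kept this order except for P21 replicates 2 and 3, each of which stood 1 or more places higher. RGL2 ran the other way: it had 3.66 to 4.94 CPM in the 3 libraries with the lowest CCA1 and 6.20 to 12.5 CPM in the other 5. RGL3 and GAI followed CCA1 loosely, RGL3 mostly upwards (Spearman's rho 0.64) and GAI mostly downwards (-0.60), beside 0.67 for RGL2. In the same sets RGL3 had 1.22 to 2.84 CPM against 2.22 to 5.32 CPM, with overlap. GAI had 63.7 to 70.1 CPM against 60.3 to 82.7 CPM, so these ranges alone show no fall. GASA1 showed no such order: its lowest libraries, P10 replicate 2 and P21 replicate 3, lay near opposite ends of CCA1. Order was weak too in GID1A and GASA6 (Spearman's rho with CCA1 of -0.31 each), RGL1 (0.26) and RGA (0.17). GASA14 had -0.90. How many of all tested genes kept such an order was not counted.

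**Figure D5:**
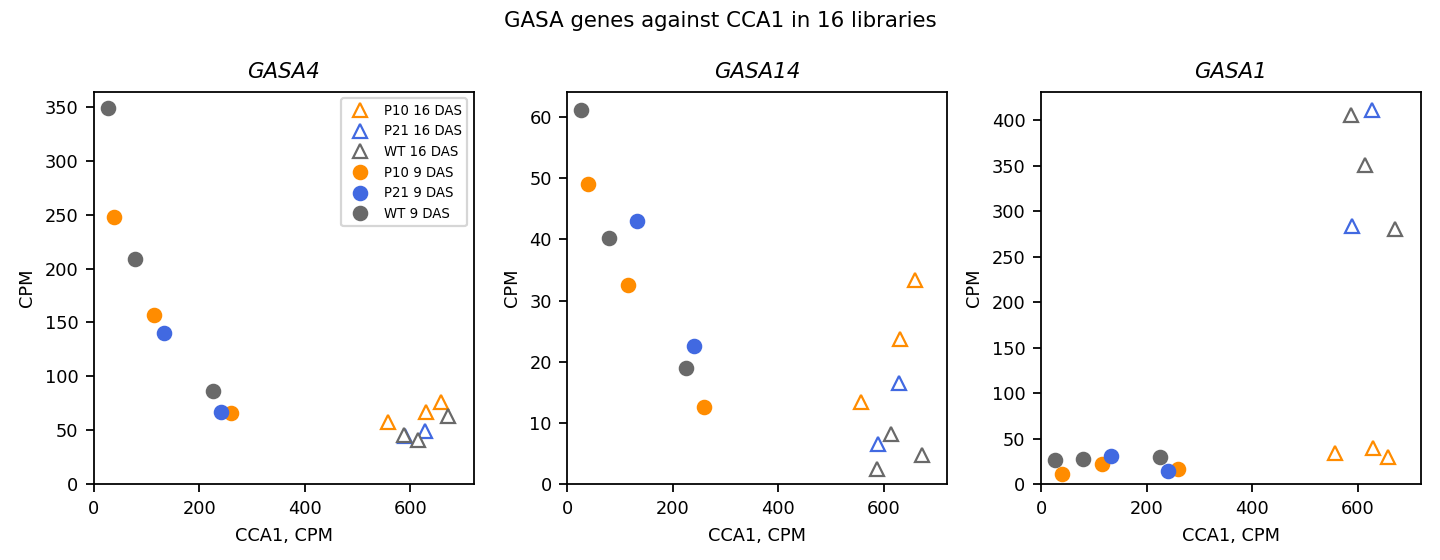
CPM of GASA4, GASA14 and GASA1 (y axes) against CCA1 (x axes) in 16 libraries, open triangles for 16 DAS and filled circles for 9 DAS. At 9 DAS GASA4 spans 66.1 to 348 CPM and is lower where CCA1 is higher, whereas CCA1 lies between 557 and 672 CPM in all 16 DAS libraries.

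At 16 DAS CCA1 had 557 to 658 CPM in P10, 589 and 628 CPM in P21 and 588 to 672 CPM in WT, above every 9 DAS library. The part of the clock in the spread at 9 DAS was not tested. Day and CCA1 level cannot be told apart in the falls of GASA4 (log2 fold change -2.07 ± 0.56, adjusted p = 0.011) and GASA14 (-3.09 ± 0.73, adjusted p = 0.0049) in WT. With replicates 1 and 3 alone for P10 and WT at 9 DAS, these were -1.53 and -2.66 and were still called. CCA1 in these WT replicates (78.9 and 225 CPM) was also below every 16 DAS library, so this fit cannot separate day from CCA1 level. The time of day of sampling was not given in the sources used here.

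Genes with profiles most like those of the 3 members with the widest range of group means were found by Pearson's r of log2 CPM over 16 libraries, which share line, day and depth differences. For GASA1 these were FAF4 (r = 0.978), the cytosolic isocitrate dehydrogenase gene cICDH (r = 0.977) and the glutathione peroxidase gene GPX1 (r = 0.964). FAF4 was sparse, with 1.58 to 2.68 CPM in P10, 8.78 and 10.5 CPM in P21 and 7.33 to 10.4 CPM in WT at 16 DAS. At 9 DAS it had at most 1.48 CPM. cICDH had 193 to 270 CPM in P10, 573 and 606 CPM in P21 and 672 to 720 CPM in WT at 16 DAS. GPX1 had 254 to 299 CPM in P10, 528 and 733 CPM in P21 and 701 to 991 CPM in WT. For GASA14 they were the kinase gene NEK1 (r = 0.950), AT1G76660 (r = 0.940) and AT5G27860 (r = 0.936), and for the sparse RGL3 AT3G51980 (r = 0.873), AT5G07360 (r = 0.871) and SDP6 (r = 0.866).

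The rest of the pathway was read from lists. Of 54 other genes in 5 lists, 26 passed the low-count filter, and of these 3 rose and 5 fell in P10 against WT at 16 DAS, beside the 8.1% higher and 7.69% lower (15.8% in all) among all tested genes. None was called in P10 against WT at 9 DAS (0.339% of all tested genes) or in P21 against WT at 16 DAS (0.127%). In P21 against WT at 9 DAS 1 rose, where 5.39% of all tested genes were called in either direction. Among genes of gibberellin synthesis, 1 of 6 tested rose, KAO1 (log2 fold change 0.85 ± 0.28, adjusted p = 0.033), which makes the first gibberellin from kaurenoic acid. The list had a median of 0.36 in this comparison. The 1 tested gene of gibberellin inactivation and the 6 of perception and DELLA regulation, the receptors GID1B and GID1C and the F-box gene SLY1 included, gave no call between P10 and WT at 16 DAS.

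Among 11 tested DELLA partners and early targets, 2 rose and 3 fell in P10 against WT at 16 DAS, with a list median of -0.17. PIF3, a light-regulated transcription factor that DELLA proteins bind, averaged 55.2 ± 10.1 CPM in P10, 15.1 ± 4.77 in P21 and 12.7 ± 1.97 in WT at 16 DAS (SD, n = 3, 2 and 3). Its log2 fold change over WT was 2.14 ± 0.23 (adjusted p = 2.8e-06), and it also rose in P21 against WT at 9 DAS (1.06 ± 0.26, adjusted p = 0.017). AT5G50915 fell (-1.89 ± 0.38, adjusted p = 0.0017), and so did the sparse WRKY27 (-1.85 ± 0.60, adjusted p = 0.032). SCL3 and XERICO are named after their values were seen. SCL3, a direct DELLA target that works against DELLA repression, fell (-1.27 ± 0.36, adjusted p = 0.017), and XERICO, a RING-type gene that DELLA proteins raise and that favours abscisic acid, rose (1.06 ± 0.25, adjusted p = 0.0051).

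Of a list of 11 further loci set beside the GASA genes, 2 passed the low-count filter. Both fell in P10 against WT at 16 DAS, beside 7.69% lower among all tested genes. AT2G14900 gave -1.97 ± 0.69 (adjusted p = 0.045), next to the threshold and with a wide error. AT1G22690 gave -0.89 ± 0.24 (adjusted p = 0.013). AT1G22690 had 42.0 to 69.0 CPM in P10, 94.8 and 81.8 CPM in P21 and 62.6 to 118 CPM in WT at 16 DAS, so that P10 and WT overlapped.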

How the data were processed

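Poly-A RNA of first leaf pairs was sequenced after TruSeq Stranded mRNA preparation. The authors trimmed and mapped reads to TAIR10 with CLC Genomics Workbench at default settings and deposited, per gene and library, unique gene read counts, total gene read counts and RPKM values in 4 comparison tables, together with columns of their own comparisons (fold changes and p-values), which were not used. Counting by strand was not stated. No deposited region overlapped a member, and all member reads were unique. Another 384 columns of per-sample values (repeats or other measures) were left aside.

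Unique gene reads of 16 libraries were joined by locus. Low counts were removed with filterByExpr, libraries were scaled by TMM, and 1 mean per line and day was fitted with edgeR 4.0.16 (robust quasi-likelihood, R 4.3.3). CPM values carry the same scaling. Standard errors of log2 fold changes were taken as the absolute log2 fold change over the square root of the test's F statistic. A call needed an adjusted p under 0.05 over 16499 genes and a log2 fold change beyond 0.75. On simulated counts for P10 against WT at 16 DAS, 48 of 100 genes changed by 1 log2 unit and 96 of 100 changed by 2 were called. For P21 against WT at 9 DAS, with 2 P21 libraries, these were 40 and 86 of 100. Changed genes were drawn above a floor of mean reads that RGL1 and RGL3 did not reach. The rates therefore do not cover these genes. Far fewer genes were changed than were called in P10 against WT at 16 DAS. Alternatives used DESeq2 1.42.0, limma 3.58.1 on log2(RPKM + 1) or log2(RPKM + 0.1), total reads, other filters and left-out libraries. Gene names and upstream sequences came from the RefSeq annotation of TAIR10.1. Members, lists and tests were chosen with earlier results of these data known. Outside the members, the 3 largest called changes per list in P10 against WT at 16 DAS and the 2 largest in each other comparison with WT were named.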

Additional observations from a re-analysis of the deposited data

Results flagged for a closer look

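The difference between P10 and WT was not the same at the 2 days for 2 genes, by a test of the difference itself. For GAI the log2 fold change of P10 over WT was larger at 16 than at 9 DAS by 1.21, and for GASA1 it was lower at 16 than at 9 DAS, with a difference of -2.55. Both held in every alternative run. Groups of 2 or 3 libraries are too small for a check of single outlying libraries.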

How the results depend on the processing

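Of 25 called member values, 13 kept direction and call in every alternative, among them GAI and GASA1 in P10 against WT and P21 at 16 DAS. None of the 649 recomputed values changed sign, and 53 were no longer past the threshold. Of 2199 recomputed values that were not called, 32 passed the threshold and 87 changed sign, all from values with an unadjusted p of at least 0.121. limma on log2(RPKM + 1), which changes the test along with the scaling, gave a median of all genes of 0.18 in P10 against WT at 16 DAS. Of its calls, 72.3% were higher. With edgeR and TMM the median was 0.02, and 1336 of 2605 calls were higher. The causes of changed calls were not tested.

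Leaving out 1 library gave 2 to 7 calls in P10 against WT at 16 DAS, 2 to 6 in P10 against P21 at 16 DAS, 2 to 5 in 16 against 9 DAS in P10 and 3 to 4 in P21. Without the fold threshold, 16 against 9 DAS in P10 had 5 calls. With a replicate block within each day, 16 against 9 DAS had 1 call in P10 (3 without the block, GID1A and GASA6 lost), 2 in P21 (4 without, RGL1 and GASA6 lost) and 4 in WT (5 without, GASA4 lost), with GASA1 called in all 3 lines, and P10 against WT at 16 DAS kept 7. Whether the numbers pair the samples was not settled. Deviations of same-numbered libraries correlated above 0.1 in 4 of 14 pairs, all of them at 9 DAS. The highest was r = 0.47, for replicate 2 of P10 and WT, while replicate 3 of P10 and P21 gave -0.17. Differently numbered libraries reached 0.52 at that day (P10 replicate 1 and WT replicate 3). Depth limits the RGL genes most, at 0 to 53 reads a library.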
